A study of Mus musculus with 6 samples.

Results

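The genes of the cytosolic ribosome were followed in whole prostates of 4-week-old mice. Members were chosen by name: every gene whose symbol starts with Rpl or Rps and a digit and that a probe set names alone, without the Rps6k kinases, Rps19bp1 and annotated pseudogenes. This gave 58 genes of the 19938 that could be followed, 35 with Rpl and 23 with Rps symbols. Of the 58, 50 stand on a list of 73 standard ribosomal protein genes, 30 of the large and 20 of the small subunit, and the other 8 are paralogs or like-genes. Of the standard genes that are not members, 16 are named only by probe sets with several symbols and 7 were not analysed here. Expression was measured in 3 mice with an AR3 transgene and in 3 wild-type littermates, with 1 Affymetrix whole-transcript array per mouse. AR3 is a splice variant of the androgen receptor that lacks the ligand-binding domain. The labels used here name neither the promoter that drives the transgene nor the strain or the number of founder lines, and the tissue holds all cell types of the gland. Values are the deposited probe set intensities on a linear scale. Changes are transgenic minus wild-type on the log2(intensity + 16) scale, which understates changes of dim genes.

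Each cytosolic ribosome joins a large subunit, which makes peptide bonds, to a small subunit, which reads the mRNA, and nearly every protein of both is needed in equal number. Messages for ribosomal proteins begin with a terminal oligopyrimidine (TOP) tract, a C followed by a run of C and T bases. Through this tract the mTOR kinase, with the proteins Larp1 and the 4E-BPs, sets how well these messages are translated, a step that an array of RNA levels does not see. The secretory epithelium of the prostate makes large amounts of secreted protein and depends on ribosomes for it.

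Sequences around the annotated starts are shown for features that many, though not all, of the members hold. RefSeq promoters (GRCm38.p6, 250 bases before to 50 after each annotated start) were found for 47 of the 58 members and for 40 of the 50 standard ones. A run of at least 8 pyrimidines between 20 bases before and 30 after the start stood in 20 of these 40 (50%), against 21.2% of 17444 other protein-coding genes. In only 10 of the 40 did such a run, as the longest of the window of 15 bases on each side, cover the annotated first base. In others, such as Rpl10, Rpl24 and Rps4x, no run there was longer than 4 bases. The windows below are 6 of those 10, picked to show such runs. Capitals mark the run in the genome, which in all 6 begins before the annotated start and so is not the tract of the message itself.
Rps6 (GRCm38.p6 chr4:86857353-86857382, minus strand): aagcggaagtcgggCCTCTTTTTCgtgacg
Rps10 (GRCm38.p6 chr17:27635230-27635259, minus strand): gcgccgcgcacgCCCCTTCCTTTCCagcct
Rps18 (GRCm38.p6 chr17:33955651-33955680, minus strand): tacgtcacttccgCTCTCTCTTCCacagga
Rpl7a (GRCm38.p6 chr2:26910792-26910821, plus strand): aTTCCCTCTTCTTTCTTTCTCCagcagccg
Rpl28 (GRCm38.p6 chr7:4792950-4792979, plus strand): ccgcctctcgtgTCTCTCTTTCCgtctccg
Rpl38 (GRCm38.p6 chr11:114668565-114668594, plus strand): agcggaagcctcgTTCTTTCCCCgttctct

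The core of the ETS family site, CCGGAAG, was found on either strand of the 300-base promoter in 15 of the 40 standard members (37.5%), against 12.9% of the other protein-coding genes. Windows are shown for 5 members that the results below return to, with the motif, or its complement CTTCCGG, in capitals.
Rps2 (GRCm38.p6 chr17:24719925-24719954, plus strand): atttatacgtcCTTCCGGctggtgtagggc
Rps6 (GRCm38.p6 chr4:86857440-86857469, minus strand): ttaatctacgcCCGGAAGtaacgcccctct
Rps7 (GRCm38.p6 chr12:28635949-28635978, minus strand): tttcagaagagCTTCCGGtttccacccacc
Rps21 (GRCm38.p6 chr2:180257280-180257309, plus strand): ctttctttgcaCCGGAAGcggaagttaaaa
Rpl34 (GRCm38.p6 chr3:130730321-130730350, minus strand): ttccttttcctCTTCCGGggacggtgctca
The SP1 core GGGCGG stood in 57.5% of the 40 and in 49.2% of the others, and TATAAA in 10% and 14.8%. AGAACA, a half-site of the steroid receptor motif, stood in 7 of the 40 (17.5%) and in 18.5% of the others. These motifs were sought on both strands and can overlap, and a match is a description of the letters.

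No ribosomal protein gene passed the test between the genotypes. At an adjusted p under 0.05 (limma), 0 of the 58 members were higher and 0 lower in transgenic prostates, against 1.64% of all genes (1.18% higher, 0.456% lower) and 3.16% of the 1139 genes with a mean intensity of 1000 or more. At an unadjusted p under 0.05 there were also 0 of 58, against 12.2% of all genes and 17.1% of those brighter ones. This count depends on the fit: 12 members reached that p with variances that follow intensity and are fitted robustly, and 4 with array weights. It was 3 with an added constant of 64, 2 without wild-type replicate 1 and 1 without the dimmest 40% of probe sets. The share of all genes under that p was not counted in those fits. The robust fit and that with array weights called 678 and 1202 probe sets, against 425 in the fit reported here. In the fit reported here the smallest adjusted p of a member was 0.445 (Rps14). Changes ran from −0.17 (Rps27l) to 0.21 (Rps23rg1, 0.04 without wild-type replicate 1 and 0.44 without wild-type replicate 3), and among the 50 standard members from −0.12 (Rps21) to 0.17 (Rps14). The largest of these is a 1.13-fold difference. The median change was 0.03 over all members and 0.04 over the standard ones, against 0.01 over all genes. With each array centred on its median these were −0.0040, 0.0019 and −0.025. In whole tissue, fewer cells of a type and less RNA per cell cannot be told apart.

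The precision of 3 against 3 mice and the variance that limma shares between genes both limit how small a difference could have been seen. The shared part widened the intervals of members with little spread: Rps7 had an SD between mice of 1 genotype of 0.0054 and an SE of 0.067. For 41 of the 50 standard members the 95% interval of the change lay within 1.25-fold in both directions (log2 ±0.32), as it did for 65.8% of the genes of 1000 or more. The furthest upper bound of a standard member was 0.39 (Rpl14, 1.31-fold) and the furthest lower bound −0.41 (Rpl37a, 1.33-fold lower). Every member's interval included 0.

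**Figure D1:**
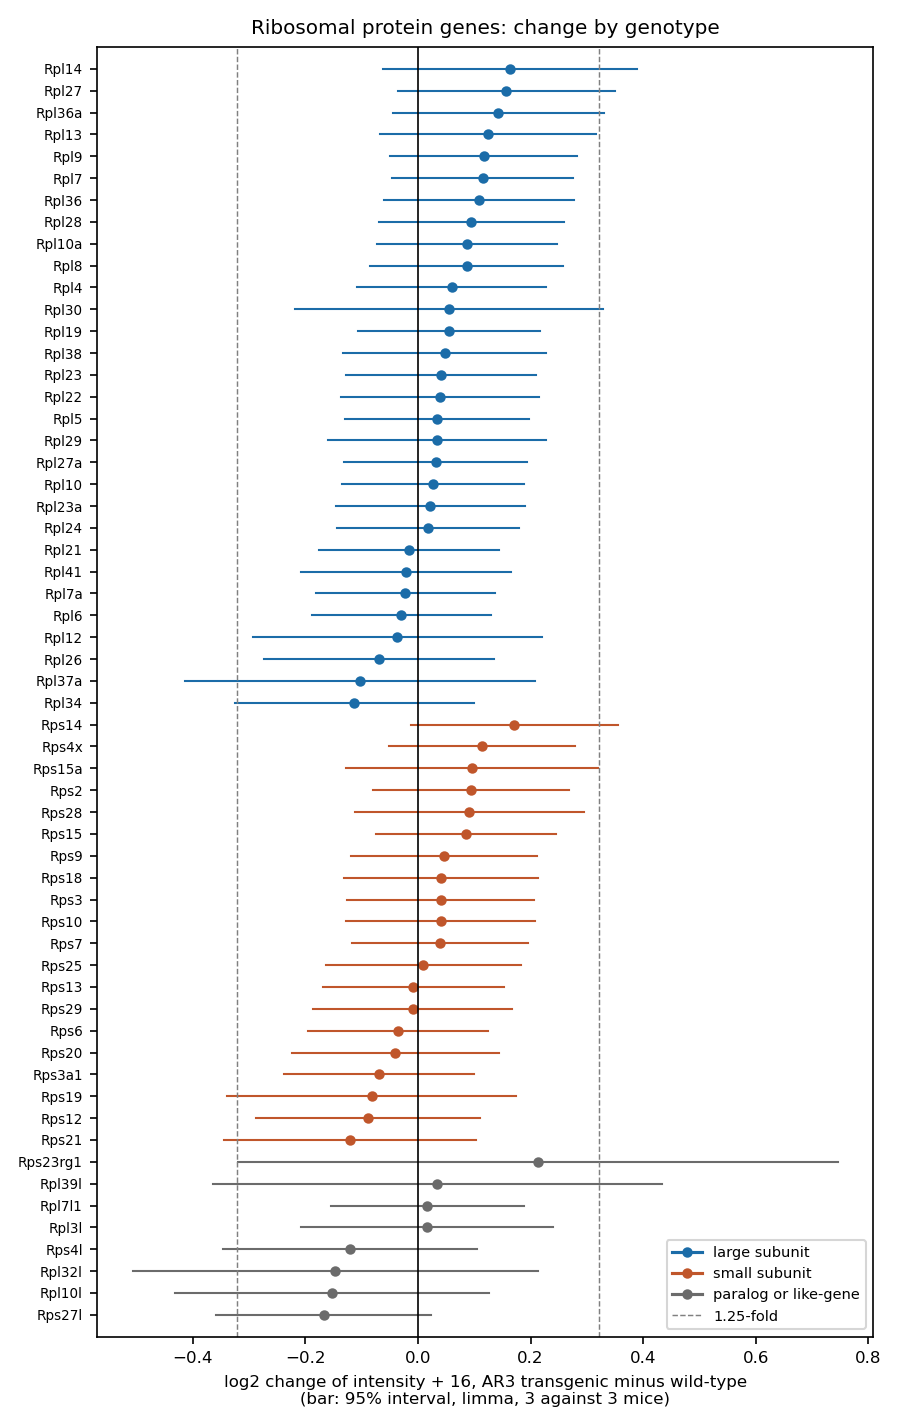
Change of each of the 58 members on the x axis (log2 of intensity + 16, AR3 transgenic minus wild-type, 3 against 3 mice), with bars for the 95% interval from limma and dashed lines at 1.25-fold. All intervals cross 0, and the widest belong to the dim genes Rps23rg1, Rpl39l and Rpl32l.

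Among large subunit genes, 22 of 30 had a positive and 8 a negative change with a median of 0.04, and 16 and 14 after median centring. Over all genes 53.9% were positive, and 56.2% of the other genes of 1000 or more. Rpl10, which joins the large subunit late in its assembly, had the brightest probe set of the members. Its intensities were 9519, 9131 and 9217 in wild-type replicates 1 to 3 and 9373, 9320 and 9697 in transgenic replicates 1 to 3, a change of 0.03 ± 0.07 (SE). Rpl21 lay at 6543, 6295 and 6526 in wild-type and at 6283, 6406 and 6458 in transgenic mice. Its change was −0.02 ± 0.07, and the genotypes overlapped in both genes.

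The 5 largest positive changes held 3 large subunit genes, none past the threshold. Rpl14 lay at 821.0, 707.6 and 737.4 in wild-type and at 791.3, 936.8 and 816.4 in transgenic mice (0.16 ± 0.10, adjusted p 0.56). Rpl27 lay at 2000, 1806 and 1771 in wild-type and at 2059, 2179 and 1981 in transgenic mice (0.16 ± 0.08, adjusted p 0.50). The genotypes overlapped in both: 2 transgenic mice of Rpl14 and 1 of Rpl27 lay below the highest wild-type mouse. Rpl36a lay at 2776, 2879 and 2784 in wild-type and at 3036, 3369 and 2933 in transgenic mice (0.14 ± 0.08, adjusted p 0.54), with all transgenic values above all wild-type ones. A retrogene of Rpl36a, Rpl36al, encodes a near-identical protein, so signal from both can mix.

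Rpl5, which with Rpl11 and the 5S RNA forms the particle that binds Mdm2 when ribosome assembly fails, had 5594 ± 90.6 in wild-type and 5727 ± 164 in transgenic prostates (SD, n = 3). Rpl10a, of the stalk where spent tRNA leaves, was the member with the tightest transgenic values among the genotype-separated ones, at 4684, 4655 and 4673 against 4478, 4284 and 4422 in wild-type mice (0.09 ± 0.07, adjusted p 0.67). Rpl38, whose loss in mice disturbs the patterning of the axial skeleton, lay at 3001 ± 80.6 and 3105 ± 183. Rpl6 lay at 4626 ± 51.3 and 4532 ± 76.6. Rpl7a, with the long pyrimidine run shown above, lay at 2582 ± 46.5 and 2541 ± 13.5. None of these passed the threshold.

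Among small subunit genes, 12 of 20 had a positive and 8 a negative change with a median of 0.04, and 11 and 9 after median centring. Rps6, the substrate of the S6 kinases, lay at 7168, 7029 and 7213 in wild-type and at 7083, 6992 and 6823 in transgenic mice (−0.04 ± 0.07, adjusted p 0.89). Rps2, which lines the channel where mRNA enters, lay at 7403, 6861 and 6680 in wild-type and at 7414, 7382 and 7535 in transgenic mice (0.09 ± 0.07, adjusted p 0.68). The wild-type mice of Rps2 spread widely and reached the transgenic values.

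Rps14, of the platform of the small subunit, had the largest positive change of a standard member. It lay at 4134, 3968 and 3776 in wild-type and at 4396, 4724 and 4264 in transgenic mice, which is 0.17 ± 0.08 (SE) apart (adjusted p 0.45). The brightest probe set of Rps21 had the largest negative one, at 1537, 1520 and 1812 in wild-type and 1589, 1412 and 1464 in transgenic mice (−0.12 ± 0.10, adjusted p 0.68). The change was −0.04 without wild-type replicate 3, the other probe set of Rps21 stood at 0.013, and their average at −0.05, closer to 0 than Rpl34 (−0.11) and Rpl37a (−0.10). The genotypes overlapped. Rps19, the gene most often affected in Diamond-Blackfan anaemia, lay at 967.4 ± 135 and 907.6 ± 41.7 (−0.08 ± 0.11). Of the small subunit genes whose start windows are shown, Rps10 lay at 3348 ± 134 and 3442 ± 50.2. Rps18 lay at 5865 ± 263 and 6031 ± 145, with overlap in both genes.

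In 12 of the 58 members the transgenic values did not overlap with the wild-type ones, 10 higher and 2 lower. Over all genes 19.1% were separated in this way, 10.5% higher and 8.61% lower. Of genes with an intensity of 1000 or more 35.8% were separated, against 10 of the 43 members in that range. The 10 higher members were Rps14, Rpl36a, Rpl9, Rpl7, Rps4x, Rpl36, Rpl28, Rpl10a, Rps15 and Rps7, and the 2 lower Rpl34 and Rps27l. Such a separation fixes the sign of the change with 1 array left out, another added constant, array weights or another variance model. Under quantile normalization, median centring and averaged probe sets, which could have reversed it, all 10 stayed positive. Rps7 stood at 0.0011 after quantile normalization and 0.0006 after median centring. None of the 10 passed the threshold. Apart from those set by the rule for named genes, they were singled out after their values were seen.

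Rpl9 went from 6704, 6352 and 6363 to 7103, 7146 and 6812 (0.12 ± 0.07, adjusted p 0.57). Rpl7 went from 4327, 4393 and 4204 to 4684, 4597 and 4717 (0.12 ± 0.07, adjusted p 0.56). The X-linked Rps4x went from 3460, 3516 and 3350 to 3635, 3842 and 3701 (0.11 ± 0.07, adjusted p 0.58). Each gap between the nearest mice of the 2 genotypes was small beside the intensity itself. The other separated genes of this size were Rpl28 (4891, 4774 and 4796 to 4975, 5325 and 5151), Rpl36 (3435, 3238 and 3418 to 3632, 3740.5 and 3514) and Rps15 (3996, 3962 and 4008 to 4352, 4152 and 4196), with changes of 0.09, 0.11 and 0.09. Rps7, which can also bind Mdm2, had the smallest spread, with 5661, 5666 and 5672 in wild-type against 5838, 5786 and 5839 in transgenic mice (0.04 ± 0.07, adjusted p 0.87). Rpl34 was separated by a few units, with 407.5, 405.8 and 488.8 in wild-type and 398.8, 401.0 and 396.2 in transgenic mice (−0.11 ± 0.09, adjusted p 0.68). Its change was −0.03 without wild-type replicate 3.

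**Figure D2:**
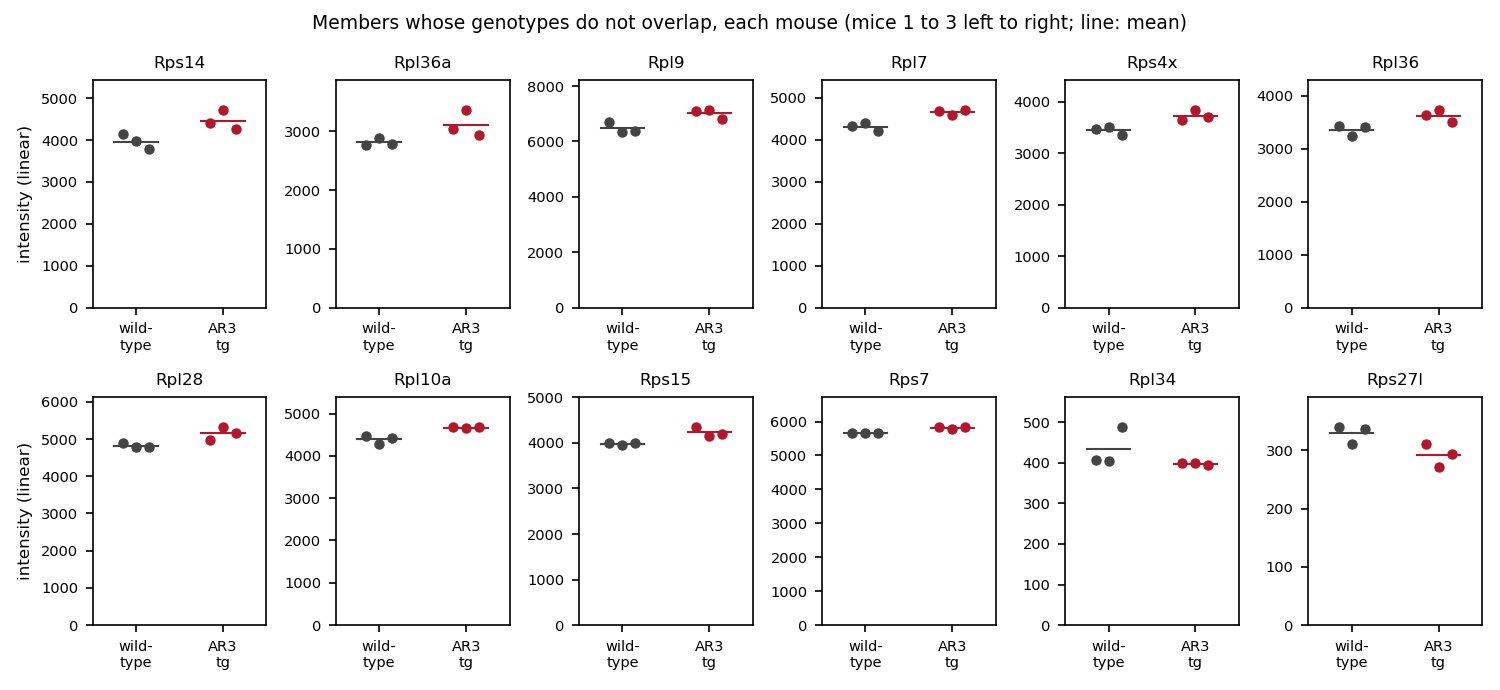
Linear intensity on the y axis for the 12 members whose genotypes do not overlap, 1 point per mouse and a line at each mean (3 wild-type, 3 AR3 transgenic, axes from 0). The 10 higher members differ by small fractions of their level, such as Rps7 with 5661 to 5672 against 5786 to 5839.

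Mice of 1 genotype often lay further apart than the genotypes did. In 47 of 58 the range of the wild-type mice on the log2 scale was wider than the change between genotypes, in 40 of the 50 standard ones. The share over all genes was not counted, so nothing particular to the members can be read from this count. The wild-type range was wider than the transgenic one in 38 members and in 68.4% of all genes. The median deviation of the 58 members from their own 6-array means was −0.015, −0.028 and −0.0080 on wild-type arrays 1, 2 and 3, and 0.014, 0.012 and 0.0075 on the transgenic ones. Over all genes it was −0.05, 0.0028 and 0.04 on the wild-type arrays. The members' mean log2 level lay between 10.74 and 10.78 in wild-type and between 10.78 and 10.79 in transgenic mice.

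**Figure D3:**
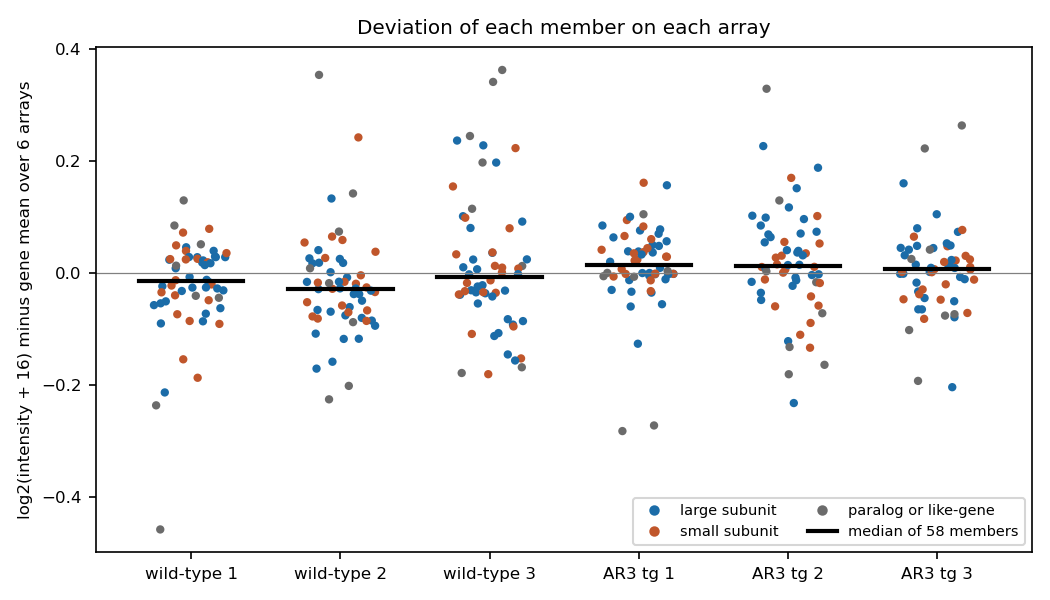
Deviation of each of the 58 members from its own mean over the 6 arrays (y axis, log2 of intensity + 16), 1 point per member and a bar at the median of each array. The medians run from −0.028 on wild-type array 2 to 0.014 on transgenic array 1, while single members spread from −0.46 to 0.36.

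Within the wild-type mice some members ran in opposite directions, a pattern picked out after the values were seen. Rps12 lay at 3446, 3827 and 4072 in wild-type replicates 1, 2 and 3, Rpl41, the shortest ribosomal protein, at 3531, 3794 and 4023, and Rpl37a at 1567, 1996 and 2146. Rpl13 lay at 3919, 3601 and 3405 on the same arrays and Rpl8 at 2985, 2828 and 2716. So replicate 1 was the lowest wild-type mouse for the first group and the highest for the second. In transgenic mice Rps12 lay at 3655, 3509 and 3480 and Rpl13 at 3820, 3995 and 4083. Markers of other tissue also differed between these mice: the mean log2 level of 6 seminal vesicle genes was 9.06 in wild-type replicate 1 and 6.08 and 6.24 in the others, and ran from 6.73 to 9.33 in transgenic mice. Their part in the pattern was not tested.

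The spread of bright members was small. Over the 43 members with a mean intensity of 1000 or more the median SD between mice of 1 genotype was 0.046 on the log2 scale, against 0.069 for 1096 other genes in that range, and the median size of the change was 0.048 against 0.088. The sets were not matched for level: the median intensity was 3753 for these members and 1517 over all 1139 genes of that range. Of the 1096 other genes 22.5% changed by more than any standard member, in either direction. Some members of that range spread more, such as Rpl37a with an SD of 0.20 and Rps21 with 0.12.

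**Figure D4:**
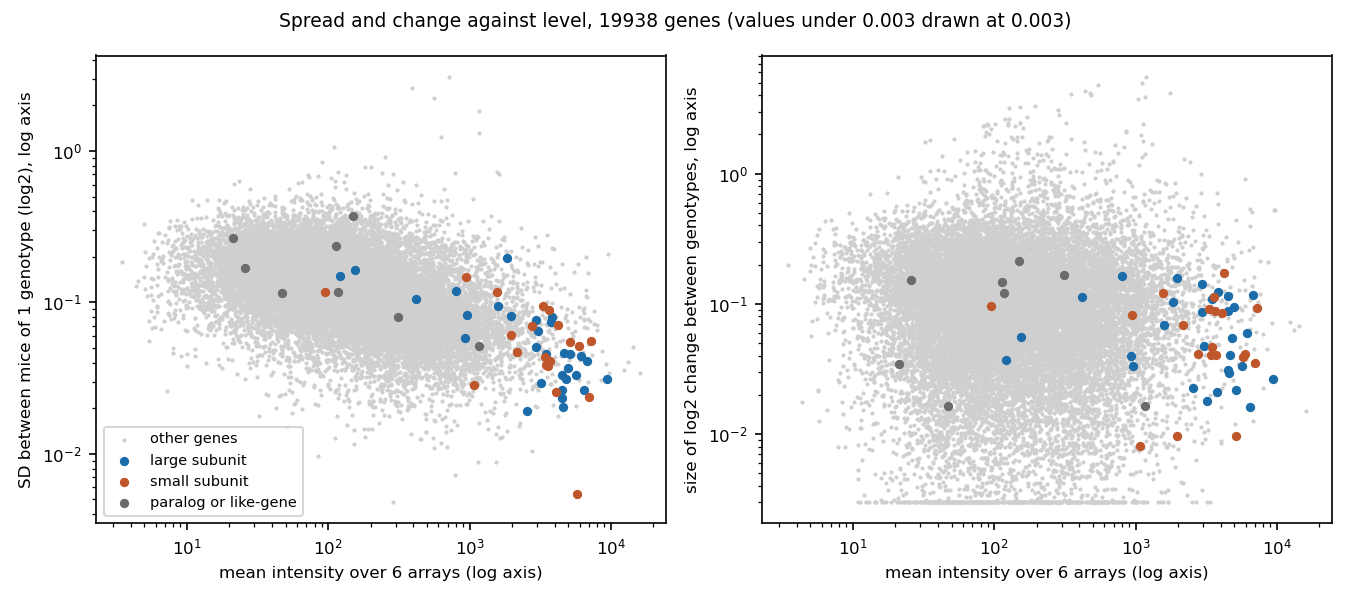
SD between mice of 1 genotype (left) and size of the change between genotypes (right), both on the log2 scale with log axes, against mean intensity for 19938 genes, with the members in colour. Members of 1000 or more have a median SD of 0.046 and a median change of 0.048, and members outside that range mix with the other genes.

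Paralogs of ribosomal proteins replace or resemble their parents in particular tissues. None of the 8 paralogs and like-genes passed the threshold, and 4 had a positive and 4 a negative change, or 1 and 7 after median centring. Rps27l, a target of p53 closely related to Rps27, had the largest negative change of all members, from 340.1, 311.4 and 336.4 to 310.3, 271.2 and 293.3 (−0.17 ± 0.08, adjusted p 0.48), with all transgenic values below the wild-type ones. The germ cell retrogene Rpl10l lay at 28.0 ± 3.63 and 23.8 ± 5.66 (−0.15 ± 0.12). Rpl39l, best known from testis, lay at 20.9 ± 8.67 and 21.3 ± 5.07, and the muscle paralog Rpl3l at 46.5 ± 6.90 and 47.0 ± 1.31.

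The last 3 genes lay below the 95th percentile of 1023 olfactory receptor probe sets (66.6 to 91.8 over the arrays), which served as a scale of background. Rps4l lay at 123.8 ± 15.9 and 112.0 ± 4.34 (−0.12 ± 0.10). Rpl7l1, linked to the assembly of the large subunit, was the bright paralog, at 1151 ± 57.4 and 1163 ± 11.9 (0.02 ± 0.07). The like-genes Rpl32l (120.0 ± 27.4 and 105.7 ± 13.6) and Rps23rg1 (102.1, 125.0 and 189.4 against 118.3, 187.7 and 178.6) were dim and varied widely in both genotypes.

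Ribosomal protein genes have many processed pseudogenes, so several probe sets can read 1 gene. The 58 members had 208 single-symbol probe sets, up to 14 for Rps12, and 0 of them passed the threshold, against 1.47% of all probe sets. In 30 of the 36 genes with several, all their probe sets changed in 1 direction, and the median spread of the change within a gene was 0.03. The 9 probe sets of Rpl13 ran from 0.11 to 0.15, the 8 of Rpl9 from 0.10 to 0.13 and the 14 of Rps12 from −0.09 to −0.07. These are not independent readings: 19 of the 208 held values identical on all arrays to another of the same gene. In 3 genes the brightest probe set was over 3 times the dimmest: Rpl23 (4639 and 196.2), Rpl7a (2561 and 759.9) and Rps21 (1556 and 279.6).

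A further 237 probe sets named a ribosomal protein gene among several symbols. None of these passed the threshold, their median change was 0.01, and their range of −0.18 to 0.15 lay close to that of the members. The 88 that name a standard gene that is not a member had a median of 0.05. Of the standard members 4 had a mean intensity under 500: Rps15a (94.1), Rpl12 (120.3), Rpl30 (155.4) and Rpl34 (416.3). Probe sets that name these genes beside others were mostly far brighter, with medians of 1527, 3793, 7366 and 3141. The shared probe sets of Rpl34 changed by −0.0084 to 0.04, against −0.11 for its own, and those of Rps15a by −0.06 to −0.05, against 0.10. Those of Rpl12 (−0.12 to −0.06) and Rpl30 (0.07 to 0.08) had the sign of the gene's own probe set.

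Some ribosomal proteins have symbols outside the naming rule. Of Rplp0, Rplp1, Rplp2, Rpsa and Fau, 0 of 5 passed the threshold. The 5 changes were positive with a median of 0.06, which is the value of Rplp2, a gene at background. Without wild-type replicate 2 Rplp2 stood at −0.14, and without transgenic replicate 1 at −0.09. Fau and Rplp0 were also negative in some fits with 1 array left out. After median centring Fau (−0.015) and Rplp0 (−0.025) were negative, and after quantile normalization Rplp0 (−0.04). Rplp0, the base of the acidic stalk that recruits elongation factors, lay at 6870, 6604 and 6847 in wild-type and at 6932, 6562 and 7012 in transgenic mice (0.01 ± 0.07). Its partner Rplp1 lay at 5449 ± 237 and 5740 ± 265 (0.07 ± 0.08). Rpsa lay at 2642 ± 42.5 and 2800.4 ± 160 (0.08 ± 0.08), Fau, which encodes a small subunit protein fused to a ubiquitin-like one, at 2982 ± 53.2 and 3034 ± 206, and Rplp2 at background (26.1 ± 9.54 and 27.5 ± 8.83).

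Genes that build, feed and control the ribosome were counted list by list. Signs on these lists were counted in the reported fit only, and median centring moved the median change of all genes from 0.01 to −0.025. In limma 0 of the 165 different genes of these 8 lists passed the threshold, against 1.64% of all genes. An unadjusted p under 0.05 was reached by 8 of the 165, against 12.2% of all genes: 1 initiation gene, 2 regulators and 5 mitochondrial ribosome genes. Of 33 ribosome biogenesis genes 18 were positive and 15 negative, with a median change of 0.0086. The smallest p belonged to Wdr12, a factor of large subunit processing (217.0 ± 4.38 to 192.8 ± 3.29, −0.16 ± 0.07, adjusted p 0.42). With all its probe sets averaged Wdr12 changed by −0.08 (adjusted p 0.79). Of 5 elongation genes Eef1b2 had the smallest p (−0.12 ± 0.08, adjusted p 0.61). Of 24 initiation genes 16 were positive, with a median of 0.04, and Eif6, which keeps free large subunits from joining small ones, went from 1026, 970.5 and 832.2 to 1084, 1118 and 1096 (0.22 ± 0.09, adjusted p 0.39).

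Of 10 other genes with TOP messages 8 were positive, with a median of 0.06. The mesenchymal filament gene Vim had the smallest p among them (497.9 ± 164 to 640.3 ± 71.9, 0.39 ± 0.20, adjusted p 0.50). With 1 array left out its change ran from 0.23 (adjusted p 0.65, without wild-type replicate 3) to 0.64 (adjusted p 0.0467, without wild-type replicate 1), and the adjusted p up to 0.82 (without transgenic replicate 3). The mean log2 level of 6 fibroblast markers lay at 9.15, 8.63 and 8.47 in wild-type and at 9.0, 9.08 and 9.63 in transgenic mice, and its part in the value of Vim was not tested. Of 2 snoRNA host genes Snhg5 changed by 0.03 ± 0.08. Of 5 ribosomal stress genes Ccng1 had the smallest p (0.14 ± 0.07, adjusted p 0.50).

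The 77 mitochondrial ribosome genes gave a comparison with the other ribosome of the cell. Of these, 38 were positive and 39 negative, with a median of −0.0053. Their changes ran from −0.31 to 0.31, and 11 exceeded the largest change of a standard cytosolic member. The 2 sets were not matched for level. The median intensity was 334.5 for the mitochondrial genes and 3540 for the standard members. The median SD between mice of 1 genotype was 0.087 and 0.049 on the log2 scale. Mrpl18 had the smallest p, with 756.2, 748.0 and 777.0 in wild-type and 655.4, 595.6 and 622.0 in transgenic mice (−0.28 ± 0.07, adjusted p 0.17, and 0.0374 with robust variances that follow intensity). The difference between the 2 ribosomes was not tested.

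Of 13 regulators of ribosomal protein synthesis 7 were positive and 6 negative, with a median of 0.0020. Eif4ebp1, which encodes the translation repressor 4E-BP1 and is a target of mTOR, came closest to the threshold of any gene on these lists. It lay at 484.9, 459.7 and 562.1 in wild-type and at 355.0, 353.6 and 307.8 in transgenic mice, that is, −0.54 ± 0.10 (adjusted p 0.054). All transgenic values lay below all wild-type ones. The adjusted p was under 0.05 in 6 of the 15 alternatives, among them median centring (0.011), quantile normalization (0.035) and robust variances that follow intensity (0.0069), and ran up to 0.246 without transgenic replicate 3. Rheb, the GTPase that activates mTOR, singled out afterwards, lay at 570.4, 543.9 and 656.9 and at 503.7, 442.9 and 496.5 (−0.28 ± 0.10, adjusted p 0.30). Mtor itself lay at 279.1 ± 12.8 and 295.8 ± 8.78, and Larp1, which binds the TOP tract of messages, at 939.8, 1093 and 985.5 and at 1001, 1085 and 936.5.

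**Figure D5:**
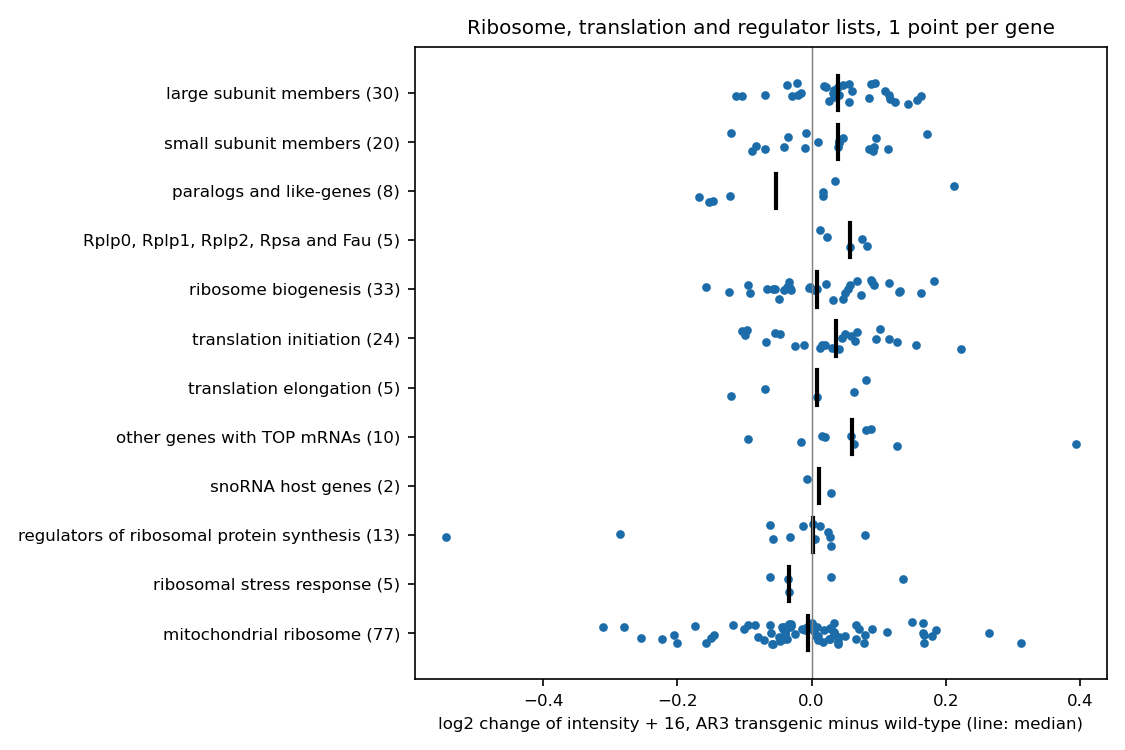
Change of each gene (x axis, log2 of intensity + 16, AR3 transgenic minus wild-type) on 12 lists of the ribosome, translation and its control, 1 point per gene, with a bar at the list's median and the number measured in brackets. The medians lie between −0.05 for the paralogs and like-genes and 0.06, and Eif4ebp1 stands apart at −0.54.

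Over the whole array, 425 of 28944 probe sets passed the threshold, 305 higher (1.05%) and 120 lower (0.415%), and after median centring 314 higher and 264 lower. The median intensity of the arrays lay between 94.5 and 110.8. The secretory products Pbsn, Sbp, Msmb and Tgm4 were bright in every mouse, with genotype means of 4107 (Sbp, transgenic) to 14757 (Tgm4, transgenic). Sbp fell from 7752 ± 658 to 4107 ± 142 (−0.91 ± 0.09, adjusted p 0.0017). The mean log2 level of 6 luminal markers, Sbp among them, lay at 12.62 to 12.65 in wild-type and at 12.34 to 12.42 in transgenic mice. Of the 6, 2 had a positive and 4 a negative change, with a median of −0.11, and only Sbp passed the threshold. Between wild-type and transgenic mice the mean log2 level of 6 macrophage markers ran from 6.37 to 6.87 and from 6.92 to 7.18, that of 4 endothelial markers from 6.69 to 7.12 and from 7.23 to 7.35 (Cdh5 rose by 0.93 ± 0.12, adjusted p 0.0096), and that of 5 lymphocyte markers from 5.85 to 5.97 and from 5.87 to 5.96. What these cells add to the members' intensities was not tested.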

How the data were processed

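Per the labels' protocols, total RNA of dissected prostates was treated with DNase, fragmented and biotinylated for Affymetrix arrays. The deposited values look like linear intensities, 1 per probe set; how the authors summarised, background-corrected and normalized them is not given in the sources used here. Of 35512 probe sets, 6568 with identifiers below 10344614 were taken for controls and left out, leaving 28944. Symbols came from the platform annotation, and all 58 member symbols are in RefSeq's gene table. For a gene with several single-symbol probe sets, the one with the highest mean over the 6 arrays was used.

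Log2(intensity + 16) entered limma 3.58.1 (R 4.3.3; lmFit, then eBayes) without covariates, and two-sided p-values were adjusted by Benjamini-Hochberg over all 28944 probe sets. The script was tested on simulated data. The members, lists and tests were chosen with earlier results of these data known. Genes were named by a rule: members past the threshold, the 5 largest changes each way, the 5 brightest and 3 dimmest, paralogs, ribosomal proteins outside the symbol rule, and per list the smallest p. Alternatives were the added constant, normalization, a filter on dim probe sets, the variance model, array weights, the mouse number as a block, each array left out, all probe sets averaged and the standard genes alone. No batch is labelled. The number of arrays limits precision.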

Additional observations from a re-analysis of the deposited data

How the results depend on the processing

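No member passed the threshold in any of the 15 refits, and the smallest adjusted p of a member was 0.132, with robust variances that follow intensity, where 12 members had an unadjusted p under 0.05. The share of all genes under that p was not counted for that fit. The median change of the members was −0.0040 after median centring, where 28 of 58 were positive, and from 0.0266 to 0.0393 when 1 array was left out. The count of probe sets called was 425 in the reported fit, 678 with robust variances that follow intensity and 1202 under array weights, and ran from 234 (without transgenic replicate 3) to 519 (without wild-type replicate 1) when 1 array was left out, with 254 without wild-type replicate 2 and 248 without transgenic replicate 2. No pairing of the mice by number is labelled. Deviations of same-numbered mice correlated at −0.044, 0.046 and −0.162, which cannot show whether littermates were paired. With the replicate block 250 probe sets and 0 members were called. Of the 58 members 40 kept the sign of their change under every refit. Members near background, Rpl10l, Rpl39l and Rpl3l, dropped out when the dimmest 40% of probe sets were left out, which left 55.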
